A study of Mus musculus with 4 samples.

Results

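The tripartite motif (TRIM) genes were examined in differentiated neural cultures of APPswe/PS1dE9 mice, set against cultures of wild-type (WT) mice. Members were genes whose mouse symbol is Trim followed by a digit, found through the accession of the array probe. The array carried 92 probes for 64 such genes. A probe was kept when the scanner software called its signal well above background for either genotype on 3 or 4 of the 4 arrays. This left 45 probes of 33 TRIM genes among 20591 features kept in all, each gene being tested on its probe of highest intensity. Members were chosen by their symbol and selected on these background calls, not on ratios between genotypes. Of the 33 genes, 32 passed in both genotypes, so their place in the list did not require a difference between them. Trim16 passed in WT alone, on 3 arrays, against 1 array in APPswe/PS1dE9.

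APPswe/PS1dE9 mice carry a mutant human amyloid precursor protein and a mutant presenilin 1 and serve as a model of familial Alzheimer's disease. Neural precursors were taken from telencephalon of C57BL/6 embryos at day 13, grown for 5 days as neurospheres with EGF and FGF2, and then plated for 7 days without the growth factors, in both genotypes alike. Each of 4 two-colour arrays held 1 APPswe/PS1dE9 RNA and 1 WT RNA, and the dyes were exchanged between replicates 1 and 2 (APPswe/PS1dE9 labelled with Cy3) and replicates 3 and 4 (labelled with Cy5). The design calls the 4 pairs biological replicates but names no animals or litters, and the p-values therefore reflect only how far these arrays differ, which may be partly technical. In the commonly used line of this name both transgenes are driven by the mouse prion promoter, but the labels do not give the promoter. The App probe had log2 ratios of 0.23, 0.27, 0.00 and -0.03 on the 4 arrays (0.12 ± 0.06, SE, limma adjusted p = 0.281). The Prnp probe had 0.59, 0.59, 1.57 and 0.25 (0.75 ± 0.20, SE, limma adjusted p = 0.0659). Neither passed the test, and whether either probe matches transgene sequence was not examined. The genotype labels therefore rest on the submitters' word.

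TRIM proteins share a RING finger, 1 or more B-box zinc fingers and a coiled coil, and differ in the domain that follows. The RING finger makes most of them E3 ubiquitin ligases, which hand ubiquitin from an E2 enzyme to a substrate that the C-terminal domain often selects. Many members with a SPRY domain are induced by interferon and act against viruses, whereas members with NHL repeats or with a COS box and a fibronectin domain are known for work in neurons, on the cytoskeleton, on synapses and in axon growth. In this tissue both sides of the family can therefore be measured in 1 culture.

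The TRIM genes did not move as a family. Of the 33 kept genes, 6 were higher in APPswe/PS1dE9 cultures at a limma adjusted p under 0.05 (18.2%, against 8.25% of all features), 3 were lower (9.09%, against 2.28% of all features) and 24 did not pass. Trim34a, Trim12a, Trim21, Trim47, Trim56 and Trim12c were higher, by 1.27 to 2.29 times. Trim16, Trim45 and Trim36 were lower, with log2 ratios of -0.28 to -0.30. Without Trim16, which could enter only as lower, 2 of 32 were lower (6.25%). In either direction 27.3% of the TRIM genes and 10.5% of all features passed. The median log2 ratio was -0.03 over the 33 TRIM genes and 0.01 over all features, with TRIM genes ranging between -0.30 and 1.19. When the arrays were centred on their medians without loess, calls over all features were divided evenly between the directions (50% higher, against 78.3% in the values reported here), and 5 TRIM genes were higher and 3 lower, the lower ones being Trim45, Trim13 and Trim67 in place of Trim16 and Trim36. The error model differed too. With median centring the 6 genes reported as higher all had the same SE of 0.118, so their own spread between arrays did not enter. These RNAs come from whole cultures, in which fewer cells of a type and less RNA per cell cannot be told apart.

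**Figure D1:**
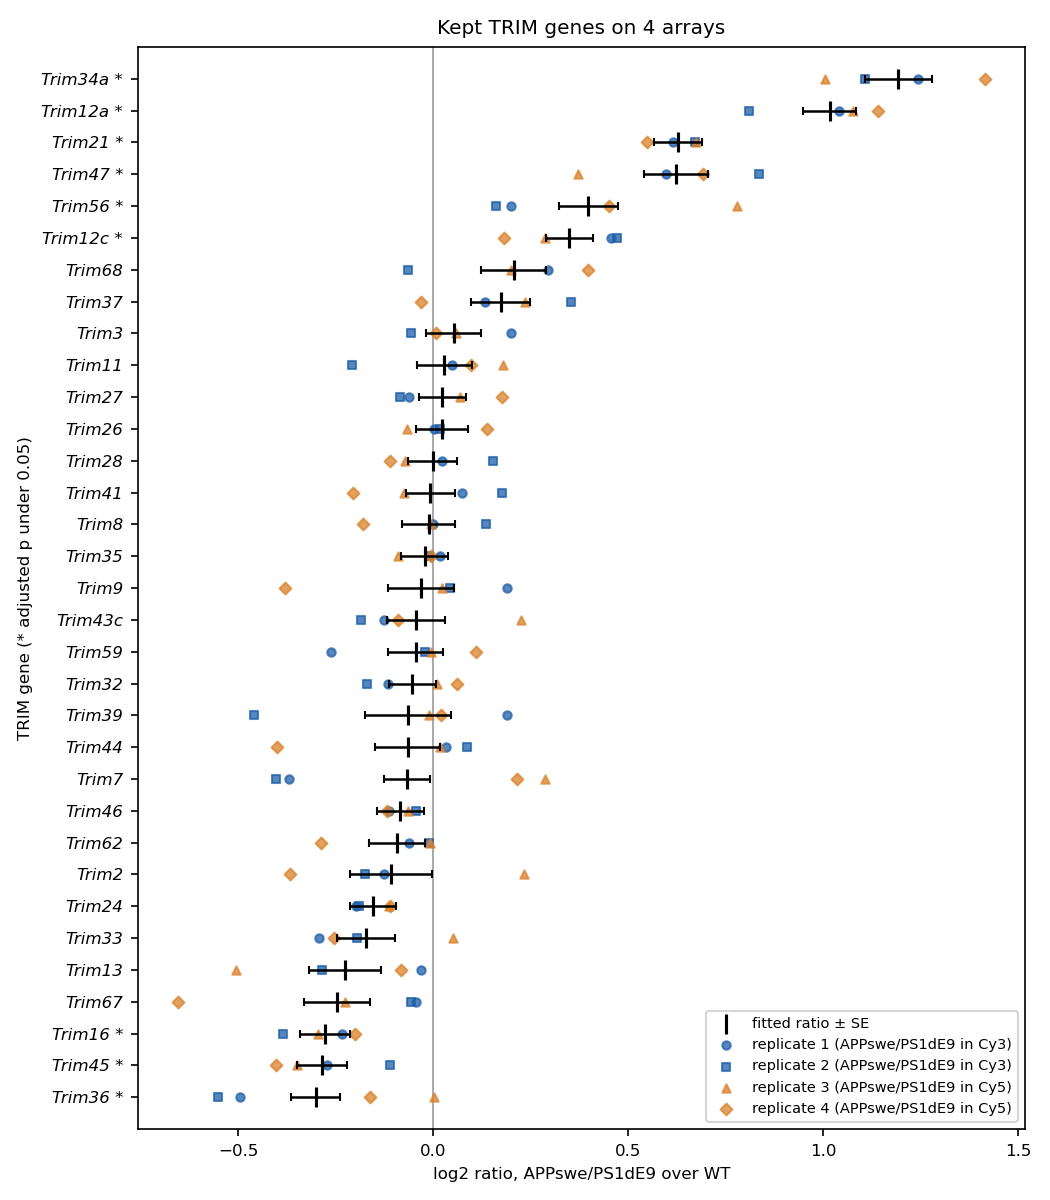
Log2 ratio of APPswe/PS1dE9 over WT (horizontal axis) for the 33 kept TRIM genes (vertical axis, ordered by fitted ratio). Symbols are the 4 arrays, coloured by dye orientation, and the black bar is the fitted ratio with its SE. Trim34a and Trim12a stand to the right of all others at 1.19 and 1.02, and 24 genes carry no asterisk.

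The 4 higher genes of chromosome 7 share a short element near their start. The interferon-stimulated response element (ISRE) is a promoter site through which interferon induces genes, and its core was searched on both strands as a pair of GAAA separated by 2 bases of any kind. The stretches below run from 90 bases before to 30 bases after the RefSeq start in GRCm38.p6, 5′ to 3′ on the gene's strand. Capitals mark matches to the core, overlapping ones run together, and the sequences are RefSeq's. Trim30a and Trim30d are shown as dim neighbours described further on, and Trim47 and Trim56 as higher genes with no match in the window.
Trim34a, chr7:104244367-104244486, plus strand: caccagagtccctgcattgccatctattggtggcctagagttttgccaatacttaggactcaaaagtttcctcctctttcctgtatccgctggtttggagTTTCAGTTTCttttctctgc
Trim12a, chr7:104315466-104315585, minus strand: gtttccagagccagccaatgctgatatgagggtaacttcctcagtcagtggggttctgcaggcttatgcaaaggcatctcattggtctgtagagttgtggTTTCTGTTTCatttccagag
Trim12c, chr7:104353320-104353439, minus strand: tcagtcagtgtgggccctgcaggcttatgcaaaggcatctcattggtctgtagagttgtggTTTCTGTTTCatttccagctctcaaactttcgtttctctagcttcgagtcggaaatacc
Trim21, chr7:102565453-102565572, minus strand: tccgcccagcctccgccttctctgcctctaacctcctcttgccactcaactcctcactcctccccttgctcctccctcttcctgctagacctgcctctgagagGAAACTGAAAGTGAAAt
Trim30a, chr7:104465164-104465283, minus strand: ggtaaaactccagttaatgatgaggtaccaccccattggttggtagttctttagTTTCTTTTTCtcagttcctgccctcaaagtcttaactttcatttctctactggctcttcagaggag
Trim30d, chr7:104507820-104507939, minus strand: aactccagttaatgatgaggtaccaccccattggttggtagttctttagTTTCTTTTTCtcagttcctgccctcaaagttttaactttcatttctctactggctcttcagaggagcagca
Trim56, chr5:137116178-137116297, minus strand: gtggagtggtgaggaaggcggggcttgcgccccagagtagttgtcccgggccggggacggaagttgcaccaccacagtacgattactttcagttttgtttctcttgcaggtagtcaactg
Trim47, chr11:116110206-116110325, minus strand: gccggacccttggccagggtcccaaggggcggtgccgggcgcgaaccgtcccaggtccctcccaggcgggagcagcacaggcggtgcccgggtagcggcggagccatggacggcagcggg

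Trim12a and Trim12c shared a run of 63 bases across their elements, and Trim30a and Trim30d shared a run of 79 bases. In windows from 250 bases before to 50 bases after each start, the ISRE core occurred in 3.44% of 32851 RefSeq windows and in 3.99% of 27025 genes. Of 52 TRIM genes with a window, 9 held it. It was found in 4 of the 6 higher TRIM genes (Trim34a, Trim12a, Trim12c, Trim21) and in 2 of 18 kept TRIM genes that did not pass the test (Trim2, Trim26). It was also found in 2 of 23 that were not kept (Trim30a, Trim30d) and in Trim5, for which no probe was matched. Over all named features with a window, the core lay in 7.42% of the 1159 that were higher, in 3.32% of the 271 that were lower and in 3.07% of the 9471 that did not pass. The interferon-gamma activated site, searched as TTCNNNGAA on both strands, lay in 9.55% of all genes and in 6 of the 52 TRIM genes, none of them higher. These matches describe the letters of the windows and do not show that a factor binds there.

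Among TRIM genes listed as interferon-induced or antiviral, 12 of 14 were on the array and 6 were kept. Of the 6, Trim34a, Trim12a, Trim21, Trim56 and Trim12c were higher, none was lower, and the median log2 ratio was 0.51. The list was drawn up with earlier results of these data known, so its direction is no independent evidence.

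Trim34a had the highest ratio of the family. It encodes a SPRY protein whose human counterpart, TRIM34, is induced by interferon. Its normalised log2 intensities were 8.04, 7.70, 8.27 and 8.54 in APPswe/PS1dE9 on replicates 1 to 4, against 6.79, 6.60, 7.27 and 7.13 in WT. Every APPswe/PS1dE9 value lay above every WT value. The fitted log2 ratio was 1.19 ± 0.09 (SE), or 2.29-fold, with a limma adjusted p of 0.000866. A second Trim34a probe stayed near background on every array in either genotype, with ratios of 0.40, 0.04, -0.12 and -0.02, so the call rests on 1 probe.

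Trim12a is one of the mouse genes related to human TRIM5, a restriction factor that recognises retroviral capsids. Its log2 intensities were 8.71, 8.32, 8.83 and 8.76 in APPswe/PS1dE9, against 7.68, 7.51, 7.76 and 7.62 in WT, again without overlap. The log2 ratio was 1.02 ± 0.07 (SE), or 2.02-fold (limma adjusted p = 0.000675). A second probe was kept through APPswe/PS1dE9 alone, on 3 arrays, with WT well above background on none. It could enter only as higher, and its signal gives a bound of at least 1.35-fold.

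Trim12c, its neighbour and close relative, gave log2 intensities of 7.07, 7.03, 7.25 and 7.46 in APPswe/PS1dE9 and of 6.62, 6.56, 6.97 and 7.28 in WT. The genotypes overlapped across arrays, while APPswe/PS1dE9 was above WT on each of the 4 arrays. The log2 ratio was 0.35 ± 0.06 (SE), or 1.27-fold (limma adjusted p = 0.0194), and it lost its call without replicate 3 or without replicate 4 (adjusted p = 0.113 and 0.102). Trim12a and Trim12c are near copies, and probe sequences were not used here, so cross-hybridisation between them was not tested.

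Trim21 encodes a cytosolic receptor for antibodies that directs antibody-coated virus to the proteasome. Its log2 intensities were 8.05, 7.97, 8.18 and 8.44 in APPswe/PS1dE9, against 7.43, 7.29, 7.50 and 7.90 in WT. All 4 APPswe/PS1dE9 values were above all 4 WT values, and the ratios of 0.61, 0.67, 0.67 and 0.55 were close to each other. The fit gave 0.63 ± 0.06 (SE) on the log2 scale, or 1.54-fold (limma adjusted p = 0.00273).

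Trim56, an E3 ligase that acts in the sensing of cytosolic DNA and restricts several RNA viruses, had log2 intensities of 9.72, 9.77, 10.25 and 9.94 in APPswe/PS1dE9, against 9.52, 9.61, 9.47 and 9.49 in WT. The genotypes did not overlap, but the ratios of 0.20, 0.16, 0.78 and 0.45 were higher on the arrays with APPswe/PS1dE9 in Cy5. Its fitted log2 ratio was 0.40 ± 0.08 (SE), or 1.32-fold (limma adjusted p = 0.0253), and the call was lost without replicate 3 or replicate 4 (adjusted p = 0.117 and 0.0702) and without the dye term (0.0779).

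Trim26, which lies in the MHC region and regulates the interferon response, was the kept member of the list that did not pass. Its ratios were 0.00, 0.02, -0.07 and 0.14, with a fitted value of 0.02 (95% confidence interval -0.14 to 0.18, limma adjusted p = 0.865). Trim26 also held the ISRE core in its window.

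Trim47, an E3 ligase with a SPRY domain, was higher without being on the antiviral list. Its log2 intensities were 10.31, 10.28, 10.15 and 10.38 in APPswe/PS1dE9, against 9.72, 9.45, 9.78 and 9.69 in WT. The values did not overlap, and the fitted log2 ratio was 0.62 ± 0.08 (SE), or 1.54-fold (limma adjusted p = 0.00748). A second kept probe, measured on 3 arrays because its spot was an outlier on replicate 4, gave 0.38 ± 0.08 (SE, limma adjusted p over all probes = 0.0539). The Trim47 call was lost without replicate 4 (adjusted p = 0.0844) and on the scanner's processed signals (0.0538).

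**Figure D2:**
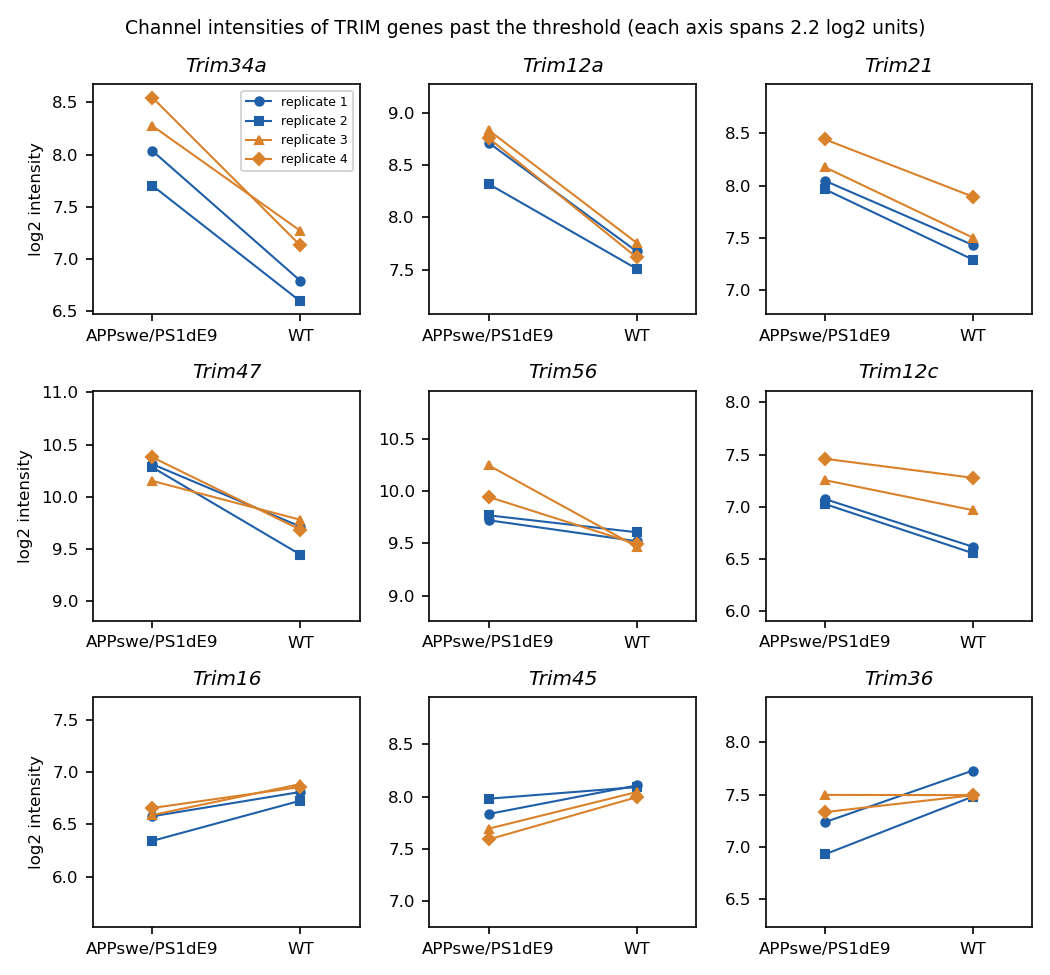
Normalised log2 intensity of the probe used for each of the 9 TRIM genes past the threshold, in APPswe/PS1dE9 (left) and WT (right), with a line joining the RNAs of 1 array and blue for APPswe/PS1dE9 in Cy3. Each panel spans 2.2 log2 units and intensities are not comparable between panels. All 4 lines fall toward WT for each of the 6 higher genes, and all 4 rise toward WT for Trim16 and Trim45, while the line of replicate 3 is level for Trim36.

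The 3 lower genes had fitted log2 ratios of -0.28 to -0.30 here, and larger ones for Trim16 and Trim36 on the scanner's processed signals (-1.22 and -0.86). Trim36, a COS, FN3 and SPRY protein that binds microtubules, had log2 intensities of 7.24, 6.93, 7.50 and 7.33 in APPswe/PS1dE9, against 7.73, 7.48, 7.50 and 7.49 in WT. The difference came mainly from replicates 1 and 2, the arrays with APPswe/PS1dE9 in Cy3, at -0.49 and -0.55. Replicates 3 and 4 stood at 0.00 and -0.16. The fit gave a log2 ratio of -0.30 ± 0.06 (SE, limma adjusted p = 0.0359), and the call was lost without replicate 2, 3 or 4 (adjusted p = 0.0839, 0.106 and 0.16). The call was also lost without the dye term.

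Trim45, a member with a filamin domain, had log2 intensities of 7.83, 7.98, 7.69 and 7.59 in APPswe/PS1dE9, against 8.11, 8.09, 8.04 and 7.99 in WT. APPswe/PS1dE9 lay below WT on every array, and the groups did not overlap. The log2 ratio was -0.28 ± 0.06 (SE, limma adjusted p = 0.0427). A second kept Trim45 probe gave 0.02 ± 0.06 (SE, limma adjusted p over all probes = 0.854), so the probes of this gene disagreed. Without replicate 1, 3 or 4 the call was lost (adjusted p = 0.112, 0.151 and 0.171).

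Trim16, known for its part in the autophagy of damaged membranes, had log2 intensities of 6.58, 6.34, 6.59 and 6.66 in APPswe/PS1dE9, against 6.81, 6.73, 6.89 and 6.86 in WT. APPswe/PS1dE9 was below WT on each array, and the groups did not overlap. The fit gave a log2 ratio of -0.28 ± 0.06 (SE, limma adjusted p = 0.0464), and the call was lost without replicate 2, 3 or 4 (adjusted p = 0.146, 0.185 and 0.151). Because Trim16 was kept through its WT signal alone, it could enter the list only in this direction. A second Trim16 probe, not kept, was well above background in APPswe/PS1dE9 on 2 arrays and in WT on none.

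TRIM genes with neural functions showed no call. Of 8 listed genes, 7 were kept, none passed limma's adjusted test in either direction (1, Trim67, was lower at an unadjusted p under 0.05 and passed with median centring, at -0.38), and their log2 ratios lay between -0.25 and 0.05 with a median of -0.05. Trim71, a stem-cell member of the NHL class, was well above background on 1 array and was not kept. Trim2, the E3 ligase of neurofilament light chain, had ratios of -0.13, -0.17, 0.23 and -0.37 (fitted -0.11, 95% confidence interval -0.36 to 0.15, limma adjusted p = 0.569). Trim3, which acts on postsynaptic scaffolds, had 0.20, -0.06, 0.06 and 0.01 (0.05, interval -0.12 to 0.22, limma adjusted p = 0.693). Trim32, which is distributed unequally between daughters of dividing neural progenitors, had -0.12, -0.17, 0.01 and 0.06 (-0.05, interval -0.20 to 0.09, limma adjusted p = 0.627). All these intervals leave out a change of the size seen for Trim21.

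Trim9, a brain ligase that binds the netrin receptor DCC, had ratios of 0.19, 0.04, 0.02 and -0.38 (-0.03, interval -0.24 to 0.18, limma adjusted p = 0.854). Its paralog Trim67 had -0.04, -0.06, -0.23 and -0.65 (-0.25, interval -0.45 to -0.04, limma adjusted p = 0.135). Replicate 4 gave the lowest value of both. Trim46, which bundles microtubules in the proximal axon, had -0.11, -0.04, -0.06 and -0.12 (-0.08, interval -0.23 to 0.06, limma adjusted p = 0.436). Trim11, a ligase that acts on the neural transcription factor Pax6, had 0.05, -0.21, 0.18 and 0.10 (0.03, interval -0.14 to 0.20, limma adjusted p = 0.836).

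The chromatin class, with a PHD finger and a bromodomain, also showed no call among its 3 kept members. Trim28 (KAP1), the corepressor that KRAB zinc finger proteins recruit to silence retroelements, had ratios of 0.02, 0.15, -0.07 and -0.11 and a 95% confidence interval of -0.15 to 0.15 (limma adjusted p = 0.990). Trim24, a coregulator of nuclear receptors, had -0.20, -0.19, -0.11 and -0.11 (fitted -0.15, interval -0.30 to -0.01, limma adjusted p = 0.169). It was below 0 on all 4 arrays, and a second probe gave -0.15. Trim33, which acts on SMAD4, had -0.29, -0.20, 0.05 and -0.25 (-0.17, interval -0.35 to 0.01, limma adjusted p = 0.214). Trim66 was not kept. At an unadjusted limma p under 0.05, 1 of these 3 genes (Trim24) was lower. None of the 10 kept genes of KAP1 silencing, Trim28 among them, passed the adjusted test, and at an unadjusted limma p under 0.05 1 was higher and 4 were lower.

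Over the remaining structural classes, the SPRY class held 5 of the 6 higher genes and 1 lower gene among 16 kept of 34 on the array. Over all features, 8.25% were higher and 2.28% lower. The lower SPRY gene was Trim16, and of the 15 kept in both genotypes 5 were higher and 0 lower. Trim68 (0.21, limma adjusted p = 0.186) and the MATH domain member Trim37, known for control of centrioles (0.17, limma adjusted p = 0.226), had the next highest ratios of the family. Trim13, anchored in the endoplasmic reticulum, had -0.03, -0.29, -0.51 and -0.08 (-0.23, limma adjusted p = 0.191). The other kept genes, Trim27, Trim41, Trim8, Trim35, Trim43c, Trim59, Trim39, Trim44, Trim7 and Trim62, had fitted log2 ratios between -0.09 and 0.02. Trim7 followed the dye, with -0.37 and -0.40 on replicates 1 and 2 and 0.29 and 0.22 on replicates 3 and 4, and its fitted ratio of -0.07 averages these. Of the 33 TRIM genes, 13 had 1 sign on all 4 arrays (39.4%, against 28.8% of features measured on all arrays).

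On chromosome 7, RefSeq lists 11 TRIM genes in a row with 1 other protein-coding gene between them: Trim6, Trim34a, Trim5, Trim12a, Trim34b, Trim12c, Trim30b, Trim30c, Trim30a, Trim30d and the pseudogene Trim30e-ps1. Of these, 9 had a probe and 3 were kept, Trim34a, Trim12a and Trim12c, all of them higher. Trim21 lies on the same chromosome outside the run. Of the 7 kept TRIM genes of chromosome 7, 4 were higher and Trim3, Trim28 and Trim68 did not pass. Elsewhere 2 of 26 kept TRIM genes were higher, a share near that of all features (8.25%).

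Trim30a and Trim30d fell just outside the filter, well above background in APPswe/PS1dE9 on 2 arrays and in WT on none, as did Trim17 on chromosome 11, while Trim16 with 3 arrays fell just inside. Trim30a is known in mouse to restrain NF-kappaB signalling downstream of Toll-like receptors. Its ratios were 0.64, 0.61, 0.62 and 1.05, at least 1.60-fold higher in APPswe/PS1dE9. Trim30d had 0.44, 0.37, 0.82 and 1.08, at least 1.53-fold higher. Both bounds set the APPswe/PS1dE9 mean against the WT mean of each array's lowest well-measured signal or the probe's own value, whichever was higher. In a fit without the filter both passed (limma adjusted p = 0.0245 for Trim30a and 0.0161 for Trim30d). Both were singled out here for signal in APPswe/PS1dE9 and none in WT, so their direction is no independent evidence. Probe sequences were not used here, so whether these genes were measured separately was not tested. Of the other 28 genes not kept, 19 had no probe well above background on any array, among them the interferon-related Trim14, Trim38 and Trim30b, and 9 had one on 1 array.

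**Figure D3:**
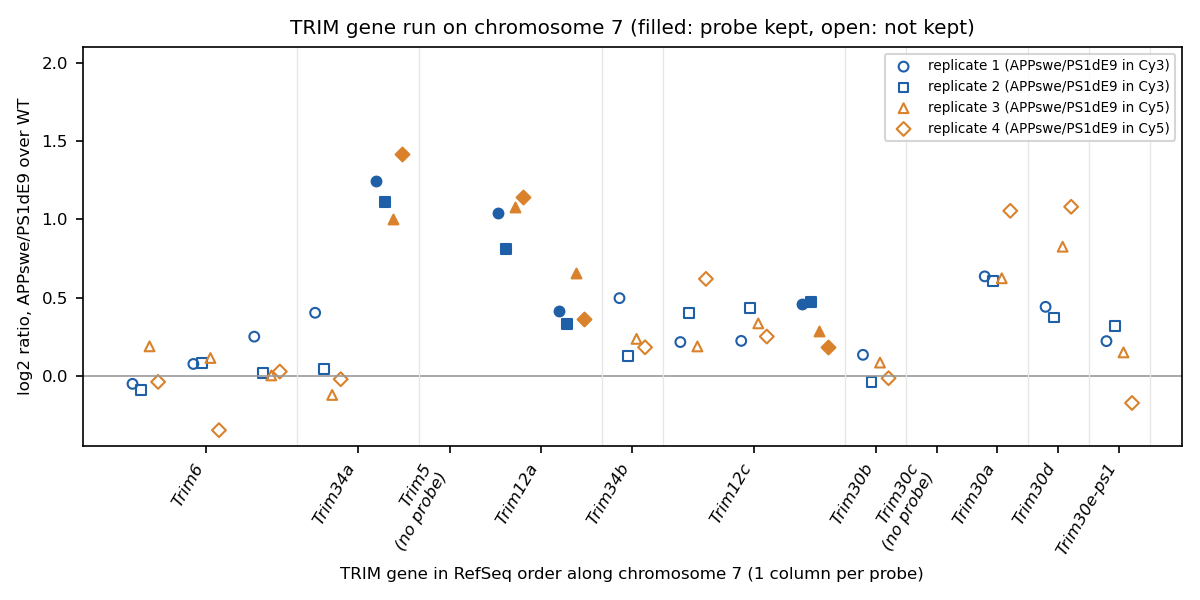
Log2 ratios of APPswe/PS1dE9 over WT on the 4 arrays (vertical axis) for every probe of the TRIM genes that follow each other on chromosome 7 (horizontal axis, in RefSeq order, 1 column per probe). Filled symbols are kept probes and open symbols are probes at or near background. Kept probes of Trim34a, Trim12a and Trim12c lie above 0 on all arrays, as do the open symbols of Trim30a and Trim30d.

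TRIM proteins known under other names were measured beside the family. Mefv (pyrin), an inflammasome sensor, had ratios of 0.78, 0.84, 0.07 and -0.07, high only on the arrays with APPswe/PS1dE9 in Cy3. It passed the test (limma adjusted p = 0.0129) but was kept through APPswe/PS1dE9 alone, on 3 arrays, against 2 arrays in WT. Pml, which builds nuclear bodies and is interferon-induced, had -0.09, 0.16, 0.37 and 0.23 (0.17, limma adjusted p = 0.218), and Mid2 had a fitted ratio of 0.01 (limma adjusted p = 0.921). Rnf207, Triml1, Triml2 and Bspry were not kept.

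Among genes of nucleic acid sensing, in which TRIM ligases act as regulators, 6 of 18 kept were higher and none was lower, against 8.25% and 2.28% of all features. At an unadjusted limma p under 0.05, 10 were higher and 1 was lower. Dhx58, Ikbke and Tlr3, none of them called, were kept through APPswe/PS1dE9 alone, and the median over the 15 kept in both genotypes was 0.14. Ddx58 (RIG-I), a sensor of viral RNA, had ratios of 0.85, 1.03, 1.12 and 1.19 (1.05 ± 0.06, SE, limma adjusted p = 0.000529). Ifih1 (MDA5), a second RNA sensor, had 0.92, 1.25, 0.66 and 1.17 (1.00 ± 0.11, SE, limma adjusted p = 0.00348). Both RNA sensors were above 0 on all 4 arrays. Sting1, the adaptor of DNA sensing, had 0.59, 0.77, 0.04 and 0.18 (0.39 ± 0.07, SE, limma adjusted p = 0.0184). Its ratios were higher on the arrays with APPswe/PS1dE9 in Cy3. Of the 13 E2 enzymes listed as partners of RING ligases, 1 was higher, a share near that of all features (8.25%), and 1 was lower (3 at an unadjusted limma p under 0.05). Ube2l6, the E2 of ISG15, was the higher one (0.49 ± 0.07, SE, limma adjusted p = 0.00862), and Ube2d1 the lower one (-0.47 ± 0.09, SE, limma adjusted p = 0.0250).

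The higher TRIM genes stood beside a larger shift of interferon-response genes. All 19 kept of 23 listed were higher, but 7 of them were kept through APPswe/PS1dE9 alone and could enter only in that direction. The 12 kept in both genotypes were all higher, with a median log2 ratio of 2.15. Over all 19 genes the summed intensities were 20300 to 27500 in APPswe/PS1dE9 and 5620 to 5920 in WT. Isg15, the ubiquitin-like interferon product, had 2.02, 2.33, 2.21 and 2.58 (2.29 ± 0.09, SE), above every TRIM gene, while Irf7 was not kept. Markers of microglia also moved with genotype. Of 12 listed, 9 were kept and 8 of these were higher, among them C1qa, Cx3cr1 and Tyrobp, which were kept through APPswe/PS1dE9 alone. Of the 6 kept in both genotypes, 5 were higher, Itgam did not pass, and the median was 1.73, while P2ry12 and Ptprc were not kept. Summed intensities of the 9 were 12200 to 16300 in APPswe/PS1dE9 and 8650 to 10700 in WT. Without Itgam, and without C1qa, which had no value on replicate 4, the other 7 summed to 4380 to 5180 in APPswe/PS1dE9 and to 1450 to 1560 in WT. Astrocyte markers were higher for 6 of 8 (median 0.45), against 8.25% of all features. Neuron markers were lower for 3 of 8 (Nefl, Nefm and Dcx, median -0.22), against 2.28% of all features. The other neuron markers did not pass, with Map2 at -0.31, Tubb3 at -0.13, Stmn2 at -0.004, Rbfox3 at 0.05 and Snap25 at 0.08. All 8 markers of each of these lineages were well above background on 4 of 4 arrays in both genotypes. Oligodendrocyte lineage markers gave no limma call among 8 (1 higher and 1 lower at an unadjusted p under 0.05), Pdgfrb was lower among 3 kept endothelial and mural markers, and T and B cell markers gave no call among 2 kept of 7, nor any at an unadjusted p under 0.05. The part of these cell types in the TRIM ratios was not tested.

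Array quality was described by background calls, saturation and correlation between arrays. Of 59305 non-control spots, 47.5% to 59.6% per channel were called well above background, and 0 were saturated. Ratios over all features correlated at Spearman's rho of 0.552 and 0.489 between arrays of the same dye orientation and at 0.107 to 0.265 between arrays of opposite orientation. Replicates 2 and 4 paired cultures with the same sex-linked transcripts, Xist in both and Eif2s3y in neither. On these 2 arrays alone, fitted without a dye term, Trim34a, Trim12a and Trim47 passed the test. Replicates 1 and 3 had Eif2s3y in at least 1 culture and Xist not in both, so their pairs may or may not match in sex.

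**Figure D4:**
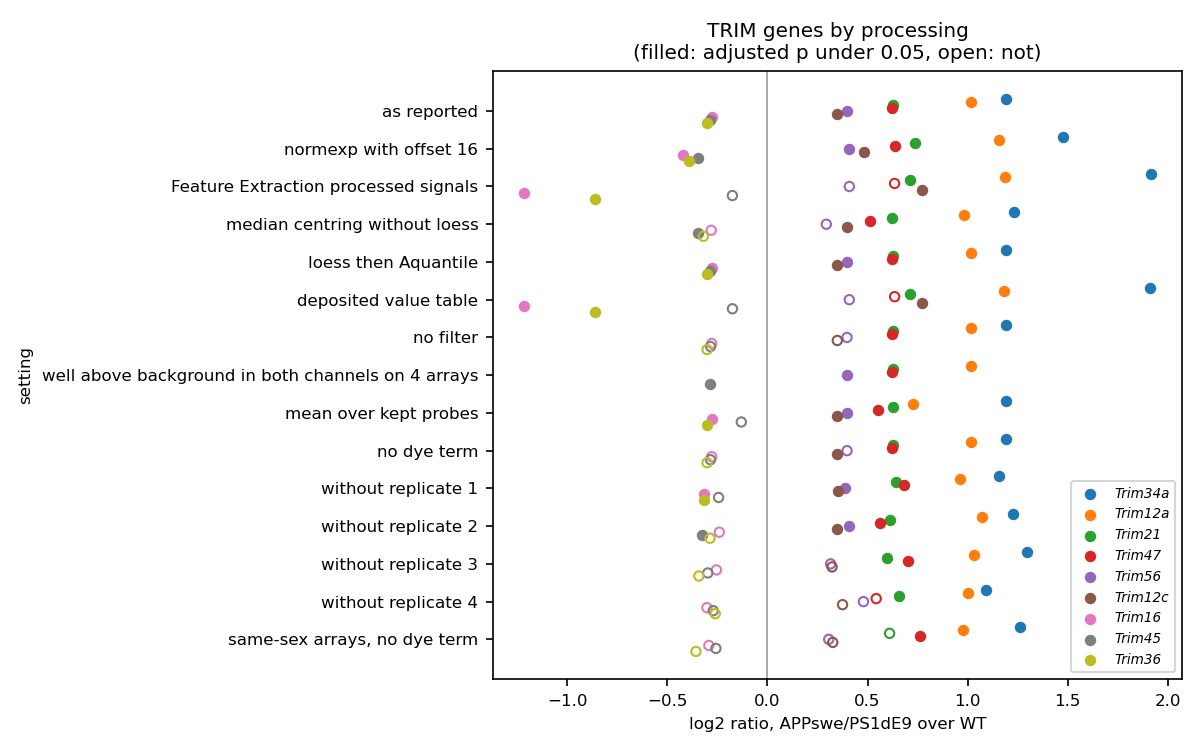
Fitted log2 ratio of APPswe/PS1dE9 over WT (horizontal axis) for the 9 TRIM genes past the threshold, under the reported and 14 other processing settings (vertical axis). Filled circles passed an adjusted p of 0.05 and open circles did not. Trim34a and Trim12a are filled wherever they were measured, while the lower genes are open in most of the leave-one-out settings.

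Across 14 other settings, Trim12a passed in 14, Trim34a in 13 of the 13 that measured it, Trim21 in 13 of 14 and Trim47 in 11 of 14. The call was less steady for Trim12c (9 of 13), Trim56 (6 of 14), Trim16 (6 of 13), Trim36 (6 of 13) and Trim45 (5 of 14). All 9 kept their direction in every setting that measured them. On the scanner's processed signals, which carry no offset, the ratio was 1.92 for Trim34a, 0.77 for Trim12c, -1.22 for Trim16 and -0.86 for Trim36. With a normexp offset of 16 in place of 50 they were 1.48, 0.48, -0.42 and -0.39, in the same order of genes.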

How the data were processed

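Per the file headers, 4 arrays were read with Feature Extraction 11.0.1.1 on the mm9 annotation. The deposited scanner files give median foreground and background intensity values, not normalized. The deposited log2 value table holds ratios of the authors' processed signals, running APPswe/PS1dE9 over WT when set against the scanner files (column medians -0.0797, -0.155, -0.0373 and -0.0378), and served as an alternative. The log10 ratios of Cy5 over Cy3 in the deposited scanner files come from processed signals, with background removed and dyes balanced by the scanner software, and were used to check the base and direction of the processed ratios.

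Background was corrected by normexp (offset 50) and ratios by loess within arrays in limma 3.58.1 (R 4.3.3), with control and outlier spots at weight 0 and then left out. Probes well above background in most of their spots, for either genotype on 3 or more arrays, were kept, which left 26912 of 55681 probes and 20591 features. Genes with several probes used the one of highest mean intensity. The limma fit (lmFit, eBayes) held terms for genotype and dye, with 2 residual degrees of freedom and 4.13 from the prior. Two-sided p-values were adjusted by Benjamini-Hochberg over all features. The fit was tested on simulated data.

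Symbols came from RefSeq (GRCm38.p6) by accession, for names, neighbours and promoter windows. The members and lists were chosen with earlier results of these data known. Values are given for TRIM genes past the threshold, those in the neural, antiviral and chromatin lists, those with the 5 highest and 5 lowest ratios, and the list genes of smallest p, with short lists named in full. Alternatives changed the background correction, normalization, filter, probe summary, dye term and arrays. 1 further TRIM family gene is not reported here.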

Additional observations from a re-analysis of the deposited data

Results flagged for a closer look

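The log2 ratios of Trim44, a member without a RING finger, were 0.03, 0.09 and 0.02 on replicates 1 to 3 and -0.40 on replicate 4. The gap between replicate 4 and the nearest other array made up 0.859 of the whole range, above Dixon's 95% critical value for 4 samples. Of the 33 TRIM genes tested this way, 1 was singled out, and chance alone singles out about 1 group in 20. Trim44 did not pass the test of genotype (-0.07 ± 0.08, SE, limma adjusted p = 0.680).

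Probes left out of the comparison were well above background in APPswe/PS1dE9 on 2 arrays and in WT on none for Trim30a, Trim30d, Trim17, Trim16 and Trim12c, the last with 2 such probes. The Trim12c probes were at least 1.25-fold and at least 1.24-fold higher in APPswe/PS1dE9. They were picked for signal in APPswe/PS1dE9 and none in WT, so their direction is no independent evidence for the kept probe. The left-out Trim16 probe had ratios of -0.08, 0.60, 0.05 and 0.21, with replicate 2 the highest and replicate 1 below 0. Trim17 had ratios of 0.03, 0.80, -0.17 and -0.16, again highest on replicate 2 and below 0 on replicates 3 and 4, and did not pass in the fit without a filter (limma adjusted p = 0.705).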

How the results depend on the processing

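The count of higher TRIM genes was 6 as reported and lay between 4 and 6 in all settings but same-sex arrays, where it was 3, and the leave-one-out settings, where it ranged between 3 (without replicate 4) and 6. With no filter the 6 were not the same genes, as Trim30a and Trim30d stood in place of Trim56 and Trim12c. The count of lower TRIM genes was 3 as reported. It was 0 with no filter on dim probes, 0 with no dye term and 0 on same-sex arrays, 1 with the filter on both channels of all 4 arrays, and 2 on processed signals, in the deposited value table and with the mean over kept probes. Leaving out 1 array gave 0 to 2, with 2 without replicate 1, 1 without replicate 2 and 0 without replicate 3 or replicate 4. At an unadjusted limma p under 0.05, lower TRIM genes numbered 6 with no filter, 4 with no dye term, 1 on same-sex arrays, 6 without replicate 3 and 4 without replicate 4. Over all features, 1698 were higher and 470 lower as reported, against 1308 and 1307 with median centring, 715 and 240 on processed signals, 715 and 233 in the deposited value table, 960 and 103 with no filter, 1366 and 259 with no dye term and 470 and 11 on same-sex arrays. Leaving out 1 array gave 368 to 2256 higher and 4 to 517 lower features, the lowest being without replicate 4. With median centring the lower genes were Trim45, Trim13 and Trim67 (the last 2 at -0.35 and -0.38, called in no other setting), and Trim16 and Trim36 lost their calls (adjusted p = 0.0988 and 0.0515). In that setting the 6 genes reported as higher all had an SE of 0.118, against 0.06 to 0.09 as reported. Centring and error model therefore changed together. The cause was not tested, except that same-sex and leave-one-out settings hold fewer arrays and the unfiltered setting tests more features. The same-sex setting also had no dye term. Trim34a, Trim12c, Trim16, Trim36 and Trim7 gave no value under the filter on both channels. The within-array ratios already pair the RNAs of each array, so the fit has no further block. Signal over background limits the 31 TRIM genes not kept and, among those kept, Trim16, Trim34a, Trim12c, Trim36 and Trim7. The sizes of their ratios depended on the processing. Between the reported values and the processed signals, the log2 ratio went from 1.19 to 1.92 for Trim34a and from 0.35 to 0.77 for Trim12c. It went from -0.28 to -1.22 for Trim16, from -0.30 to -0.86 for Trim36 and from -0.07 to -0.37 for Trim7.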
